A study of Mus musculus with 8 samples.

Results

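Glutathione S-transferase (GST) genes were examined for Nrf2 occupancy by class, in muscle satellite cells profiled by chromatin immunoprecipitation with sequencing (ChIP-seq). The 10 genes were fixed by name, out of 21631 protein-coding genes on the chromosomes with peaks: Gsta1, Gsta2, Gsta3 and Gsta4 of the alpha class, Gstm1, Gstm2 and Gstm3 of the mu class, Gstp1 and Gstp2 of the pi class, and the microsomal Mgst1. A peak was placed at a gene when its summit lay in the gene span extended by 50 kb on each side. The Keap1-null list held 4 such peaks among 469, and the Nrf2-null list held 0 among 151. Both genotypes were C57BL/6J mice, and the cells, which are the resident stem cells of muscle, came freshly isolated from hindlimb. Keap1-null cells lack the adaptor that sends Nrf2 to degradation, and Nrf2-null cells lack the factor the antibody is directed against. Each genotype gave 2 Nrf2 ChIP and 2 input libraries, 8 in all. The libraries of a group differ only in a bench number, and the labels leave out the alleles, any Cre driver, the age of the mice and whether animals were pooled. Cells with both genes intact were not analysed here, so the values describe Nrf2 in the absence of Keap1.

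GST enzymes join the tripeptide glutathione to reactive, electrophilic molecules, which makes these easier to export and less harmful. The alpha, mu and pi classes are soluble proteins, each encoded largely by neighbouring copies that arose by gene duplication, whereas microsomal GSTs are membrane proteins of separate origin. GST genes are among the classical targets of Nrf2, which binds antioxidant response elements (AREs) together with a small Maf protein. The ARE was first worked out in rodent alpha class GST promoters.

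The values below are the authors' own, deposited in 1 joined peak list per genotype. Each peak has an irreproducible discovery rate (IDR), low when a peak ranked consistently high in both libraries. It also has the −log10 p of enrichment in each library, which rises with depth. Read depth is unknown, and a list holds only peaks that passed, so a missing peak does not show that a site was unoccupied. With 1 joined list per genotype there is no replicate unit for a test between genotypes, and no p-values are given. Which bench a library column belongs to is not recorded, and the columns are referred to as the first and second library in file order. Peak lists hold no expression levels, so the labelled cell type could not be set against its markers.

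Keap1-null peaks stood at the alpha cluster and the pi cluster, and at no mu or microsomal member. Of the 10 members, 5 had a Keap1-null summit in their window, beside 3.70% of all protein-coding genes. By class these were 3 of 4 alpha genes (Gsta1, Gsta2, Gsta4), 2 of 2 pi genes (Gstp1, Gstp2), 0 of 3 mu genes and 0 of 1 microsomal gene. The 5 genes are not 5 separate findings, since they lie in 2 gene clusters and share 4 peaks. For the Nrf2-null list the count was 0 of 10 members, beside 0.693% of all protein-coding genes, so that 0 of 10 is near the background and shows nothing about the members. None of the 4 peaks overlapped an Nrf2-null peak, which was also so for 77.4% of all Keap1-null peaks (363 of 469), so this does not set the GST peaks apart from the list. The nearest Nrf2-null summit was 10205 to 10323 kb from the alpha peaks and 36463 kb from the pi peak.

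**Figure D1:**
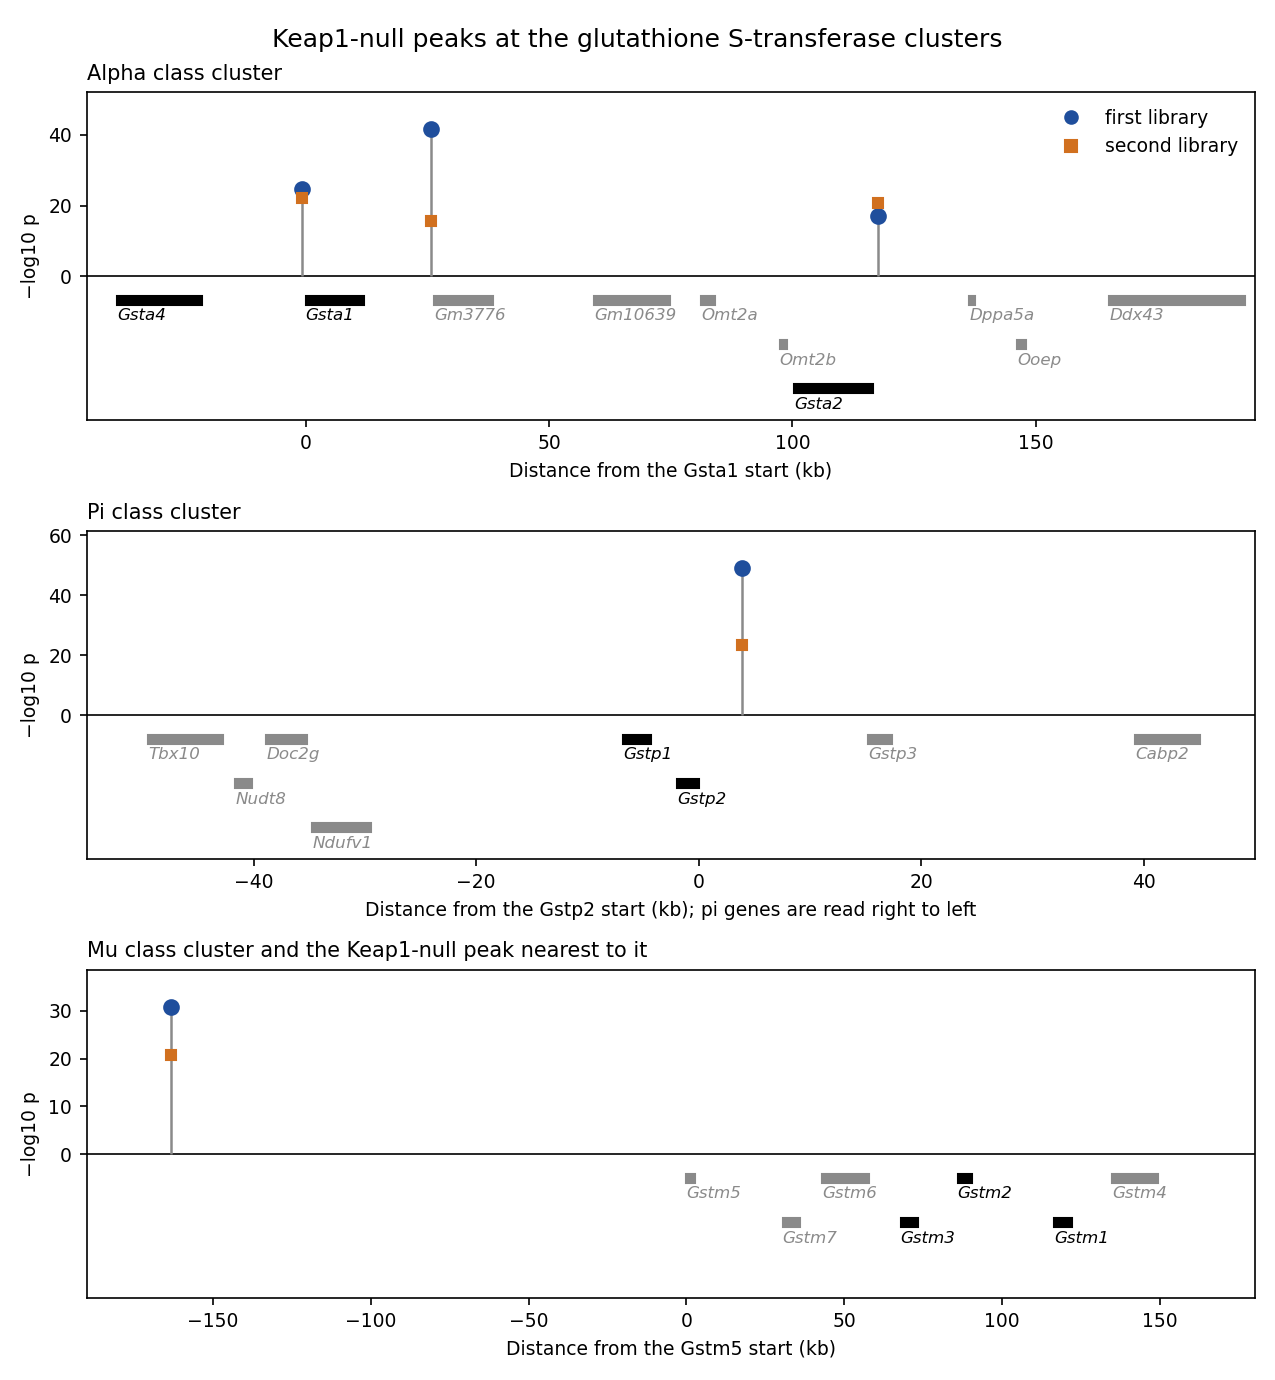
Keap1-null peaks (markers at −log10 p in the first and second library, joined to the axis by a line at the summit) above the protein-coding genes (bars; members in black) of the alpha, pi and mu clusters, by distance in kb from a gene start. The 3 alpha peaks stand at the starts of Gsta1, Gm3776 and Gsta2, the pi peak stands upstream of Gstp2 and Gstp1, and the peak nearest to the mu genes is 163 kb from Gstm5.

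In the alpha cluster on chromosome 9, 3 peaks stood upstream of 3 separate gene starts, at 728, 709 and 1139 bp. Gsta1 (gene ID 14857, chromosome 9, 78230669 to 78242683, plus strand) encodes a soluble alpha class transferase. Its peak (chromosome 9, 78229742 to 78230285, 544 bp wide) had its summit 728 bp upstream of the RefSeq start. The −log10 p was 24.8 in the first library and 22.0 in the second, and the IDR was 0.00110. The libraries were close to each other at this site, and the peak ranked 93 of 469 by IDR.

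The next alpha peak lay in the stretch beyond Gsta1, at the start of Gm3776 (chromosome 9, 78257129 to 78269166, plus strand), a protein-coding gene that carries no family name in the gene table. Whether Gm3776 or its neighbour Gm10639 is an alpha GST gene under another name was not established here, and neither is in the counts by class. This peak (chromosome 9, 78256120 to 78256696, 577 bp wide) had its summit 709 bp upstream of the Gm3776 start and 13.7 kb past the end of Gsta1. Its −log10 p was 41.7 in the first and 15.5 in the second library, with an IDR of 0.00130 and rank 100. The first library was thus 2.68 times as high as the second on the −log10 p scale, the widest gap among the 4 peaks.

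Gsta2 (gene ID 14858, chromosome 9, 78331018 to 78347192, minus strand), another alpha transferase, lies at the far side of the cluster and is read in the opposite direction. Its peak (chromosome 9, 78348084 to 78348632, 549 bp wide) had its summit 1139 bp upstream of the RefSeq start and 1092 bp from the end of the gene span, which reaches further than that start. The −log10 p was 16.9 in the first and 20.6 in the second library, and the IDR was 0.00385, rank 174. It was the lowest ranked of the 4 peaks, and at this site alone the second library was the higher one. The Gsta1 and Gm3776 summits were 26.5 kb apart, and the Gm3776 and Gsta2 summits 91.9 kb.

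Gsta4 (gene ID 14860, chromosome 9, 78191966 to 78209349), which encodes a transferase known for its activity on the lipid peroxidation product 4-hydroxynonenal, had no peak of its own. It was counted through the Gsta1 peak, 20.6 kb away, and the Gm3776 peak, 47.1 kb away and just inside the window. The nearest pairing outside the window was Gsta2 with the Gm3776 peak, at 74.6 kb. Gsta4 has no entry in the promoter table, so its strand is not given here.

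The bases upstream of starts in the alpha cluster are printed to show how alike those with and without a peak are. They come from RefSeq promoters of build GRCm38.p6, whose chromosomes are those of mm10, and run 5′ to 3′ from 250 to 51 bases before each start. Capitals mark the longest run shared by all 4 windows, 18 bases. The windows are chromosome 9, 78230419 to 78230618 (plus strand) for Gsta1, 78256879 to 78257078 (plus) for Gm3776, 78289678 to 78289877 (plus) for Gm10639 and 78347196 to 78347395 (minus) for Gsta2.
Gsta1: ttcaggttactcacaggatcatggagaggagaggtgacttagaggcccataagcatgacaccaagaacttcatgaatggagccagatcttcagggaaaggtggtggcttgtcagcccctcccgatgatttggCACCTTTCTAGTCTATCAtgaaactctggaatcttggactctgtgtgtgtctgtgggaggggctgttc
Gm3776: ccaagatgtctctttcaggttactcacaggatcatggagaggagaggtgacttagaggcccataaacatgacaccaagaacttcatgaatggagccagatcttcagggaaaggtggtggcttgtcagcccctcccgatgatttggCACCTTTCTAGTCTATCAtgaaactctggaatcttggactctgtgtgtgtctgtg
Gm10639: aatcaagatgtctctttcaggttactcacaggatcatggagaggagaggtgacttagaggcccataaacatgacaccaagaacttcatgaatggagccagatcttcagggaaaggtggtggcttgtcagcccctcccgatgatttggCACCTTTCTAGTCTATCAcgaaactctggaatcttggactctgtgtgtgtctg
Gsta2: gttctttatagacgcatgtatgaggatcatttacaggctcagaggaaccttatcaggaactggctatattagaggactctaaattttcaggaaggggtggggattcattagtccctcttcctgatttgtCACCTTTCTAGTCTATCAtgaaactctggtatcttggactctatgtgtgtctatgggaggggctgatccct

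Over the whole 300-base promoter, globally aligned, Gsta1 was 90.7% identical to Gm3776, 88.9% to Gm10639 and 75.3% to Gsta2. Gm3776 and Gm10639 (chromosome 9, 78289928 to 78305525, plus strand) were 97.7% identical. The list held a peak upstream of Gm3776, whereas the nearest summit upstream of the Gm10639 start was that same one, 33.5 kb away. Counted from the first base of the shared run, the summit lay 610 bp upstream at Gsta1, 604 bp at Gm3776 and 1018 bp at Gsta2. The first pair of distances differed by less than the gap between library summits at those sites, which was 68 bp at Gsta1 and 30 bp at Gm3776. None of the peaks reached into a promoter window, and the bases under the peaks were not analysed here. Identity was measured for the promoters only, so how alike the stretches at the peaks are is unknown. It is also unknown how reads that map to several places were treated. The split of reads among the stretches upstream of Gsta1, Gm3776 and Gm10639 is therefore uncertain. That covers the Gsta1 peak, the Gm3776 peak and the missing one at Gm10639.

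**Figure D2:**
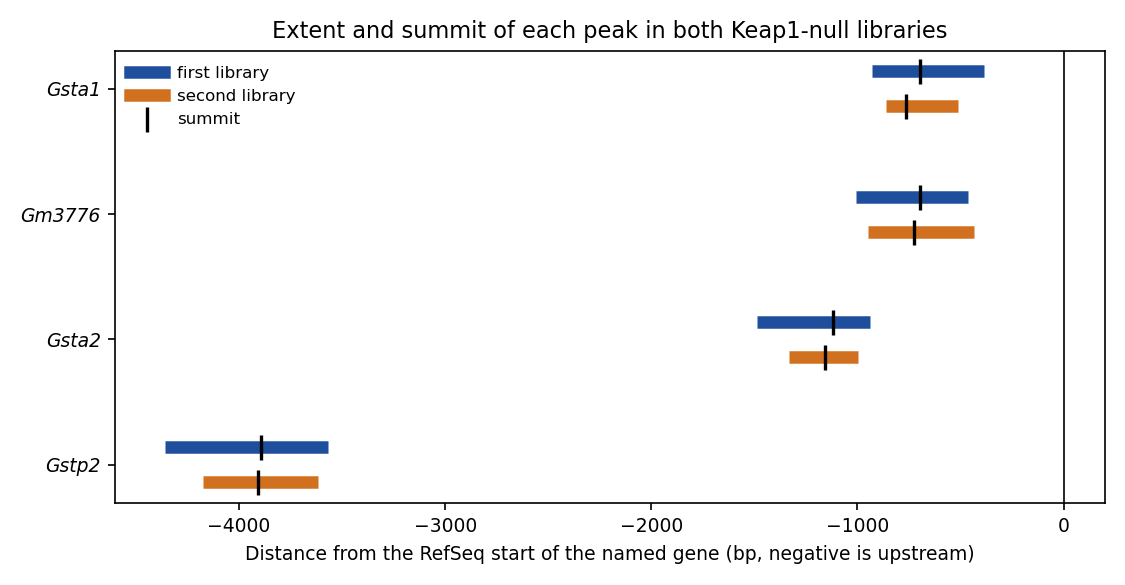
Extent (bar) and summit (tick) of each Keap1-null peak in the first and second library, by distance in bp from the RefSeq start of the named gene, with upstream negative. The Gsta1 and Gm3776 summits stand at nearly the same distance, 728 and 709 bp when joined, and the Gsta2 and Gstp2 peaks lie farther upstream.

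A single peak served the pi cluster on chromosome 19, and it was the strongest of the 4. Gstp1 (gene ID 14870, chromosome 19, 4035411 to 4037912) and Gstp2 (gene ID 14869, chromosome 19, 4040288 to 4042221), neighbouring pi class genes on the minus strand, encode the soluble transferase best known for its abundance in many tumours. The peak (chromosome 19, 4045790 to 4046582, 793 bp wide) had its summit 3901 bp upstream of the Gstp2 start and 8210 bp upstream of the Gstp1 start. Its −log10 p was 49.2 in the first and 23.6 in the second library, and its IDR of 0.000286 ranked 46 of 469. The first library was 2.09 times as high as the second. Gstp3, the other pi gene (chromosome 19, 4057470 to 4059605, minus strand), had the same peak 11.3 kb beyond its 3′ end, so that the peak lay between Gstp3 and Gstp2. The peak cannot be assigned to 1 of these 3 genes from its position.

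The Gstp1 and Gstp2 promoters are printed because both carry the same AP-1-like word. They run 5′ to 3′ on the minus strand from 250 bases to 1 base before the start, chromosome 19, 4037913 to 4038162 for Gstp1 and 4042222 to 4042471 for Gstp2. Capitals mark TGANTCA, the word searched, which is its own reverse complement and is known as the binding word of AP-1 factors.
Gstp1: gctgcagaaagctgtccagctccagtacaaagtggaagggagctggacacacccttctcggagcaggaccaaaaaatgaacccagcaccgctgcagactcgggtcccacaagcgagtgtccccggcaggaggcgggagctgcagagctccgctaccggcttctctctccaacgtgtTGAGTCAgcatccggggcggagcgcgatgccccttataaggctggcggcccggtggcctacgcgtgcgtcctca
Gstp2: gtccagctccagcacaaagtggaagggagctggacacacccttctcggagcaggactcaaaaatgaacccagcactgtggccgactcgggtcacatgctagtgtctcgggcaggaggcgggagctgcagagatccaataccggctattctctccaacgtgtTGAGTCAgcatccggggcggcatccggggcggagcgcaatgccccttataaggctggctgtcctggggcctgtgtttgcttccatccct

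The word began 74 bases before the Gstp1 start and 89 bases before the Gstp2 start, and the 300-base promoters were 77.1% identical. It was found in 7.85% of the 32619 RefSeq promoters on these chromosomes, and among members only in these pi genes. The Gstp3 promoter lacked it and was 50.8% identical to that of Gstp2, close to the 51.3% between Gsta1 and Gstp1, promoters of different classes. The pi peak began 3569 bp upstream of the Gstp2 start, outside the printed window, so the printed copies of the word do not lie in the peak. The bases under the peak were not searched for other copies.

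In the mu cluster on chromosome 3 no peak came within the window of any of the 3 members. Gstm1, Gstm2 and Gstm3, soluble mu class transferases on the minus strand, were 280, 249 and 231 kb from the nearest Keap1-null summit. The same peak was nearest to all 3 (chromosome 3, 107732488 to 107732915, 428 bp wide). It had an IDR of 0.000717, and its −log10 p was 30.8 in the first library against 20.8 in the second. It did not overlap an Nrf2-null peak, and its nearest protein-coding gene was Csf1, which encodes a macrophage growth factor, 8.38 kb away. Of the other mu genes, Gstm5 was nearest to it at 163 kb and Gstm4 farthest at 298 kb. The promoters of the 3 mu members were 48.3% to 50.8% identical to each other, below the 77.1% of Gstp1 with Gstp2 and the 75.3% of Gsta1 with Gsta2. Promoters of different classes gave similar values to the mu pairs, such as 51.6% for Gsta1 with Gstm1. Other pairs within the alpha and pi classes were also low, with 54.9% for Gsta1 with Gsta3 and 52.3% for Gstp1 with Gstp3.

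Gsta3 and Mgst1 were the other members without a peak. Gsta3 (gene ID 14859, chromosome 1, 21240565 to 21265575) is an alpha gene that lies away from the chromosome 9 cluster. Its nearest Keap1-null summit was 8596 kb away and belonged to a peak shared with the Nrf2-null list, and the nearest Keap1-null-only summit was 36764 kb away. Mgst1 (gene ID 56615, chromosome 6, 138140527 to 138156755), which encodes a membrane-bound GST, was 1201 kb from its nearest Keap1-null summit, a peak inside Arhgdib.

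The promoters of these genes without a peak are printed because they were the members that held the core word of the ARE, TGACNNNGC. They run 5′ to 3′ on the plus strand, from 250 to 51 bases before the start for Gsta3 (chromosome 1, 21240335 to 21240534) and from 250 bases to 1 base before it for Mgst1 (chromosome 6, 138140277 to 138140526). Capitals mark the core word, which in Mgst1 reads on the opposite strand.
Gsta3: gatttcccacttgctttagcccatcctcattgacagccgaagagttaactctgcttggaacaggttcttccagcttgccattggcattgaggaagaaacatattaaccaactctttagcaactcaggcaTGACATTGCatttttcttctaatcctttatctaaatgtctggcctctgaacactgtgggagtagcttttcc
Mgst1: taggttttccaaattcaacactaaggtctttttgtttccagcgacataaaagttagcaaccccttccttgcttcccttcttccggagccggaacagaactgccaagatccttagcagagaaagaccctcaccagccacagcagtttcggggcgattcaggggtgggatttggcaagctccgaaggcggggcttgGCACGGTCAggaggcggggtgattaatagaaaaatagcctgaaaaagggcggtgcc

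The core word began 121 bases before the Gsta3 start and 56 bases before the Mgst1 start. Mgst1 has another RefSeq start, whose promoter lacked the word. Counted by gene, 2 of 9 members with an entry held the word in at least 1 promoter, beside 14.9% of protein-coding genes with an entry (2568 of 17274). Counted by promoter, it was found in 12.4% of all 32619, on either strand. In Gsta3 the next base was A, giving a longer form found in 3.06% of promoters. The promoters of Gsta1, Gsta2, Gstp1, Gstp2, Gstm1, Gstm2 and Gstm3 held no TGACNNNGC in these 300 bases, which says nothing of the bases under the peaks. Gstp1 and Gstp2 did hold TGAGTCAGC, at the AP-1-like word, which differs from the searched form only by TGAG in place of TGAC. A form that allows TGAG was not searched, so these counts do not show that the pi promoters lack an ARE. No member with an entry had both TGACNNNGC in its promoter and a listed Keap1-null peak in its window. Over all protein-coding genes, 3.70% had such a peak and 14.9% of those with an entry held the word. The share with both was not counted, so their absence shows nothing about the members. It also depends on the form searched, since Gstp1 and Gstp2 had the TGAG form and the pi peak.

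Measured from gene starts, the 3 alpha peaks lay closer upstream than the pi peak. Gsta1 and Gsta2 were 2 of 9 members with a promoter entry that had a Keap1-null summit within 1500 bp upstream of a RefSeq start, beside 0.203% of all protein-coding genes with an entry (35 of 17274). Gm3776 was another of these 35 genes. That distance was chosen after the positions of the peaks had been seen.

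Across the 363 Keap1-null peaks without an Nrf2-null counterpart, the 4 GST peaks were wider than most and of middle to high enrichment. Their widths of 544 to 793 bp compare with a median of 428 bp, and the pi peak was exceeded in width by 7 of the 363. The smaller −log10 p of the 2 libraries was 22.0 at Gsta1, 15.5 at Gm3776, 16.9 at Gsta2 and 23.6 at the pi genes, against a median of 11.0. Of the 363 peaks, 37 had a higher smaller value than the pi peak and 86 had a higher one than the Gm3776 peak. In the first library alone the order differed, with 22 peaks above the pi peak, 31 above Gm3776, 103 above Gsta1 and 179 above Gsta2. In the second library 42, 99, 51 and 59 peaks were above them, so the rank of each of the 4 peaks depended on the library. The pi peak and Gm3776 ranked higher in the first library, and Gsta1 and Gsta2 in the second. The median ratio of first to second library was 1.48 over these 363 peaks, below the 2.68 and 2.09 of the Gm3776 and pi peaks and above the 1.13 of Gsta1 and 0.823 of Gsta2. These are values of 4 peaks from 1 pair of libraries and carry no error of their own.

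**Figure D3:**
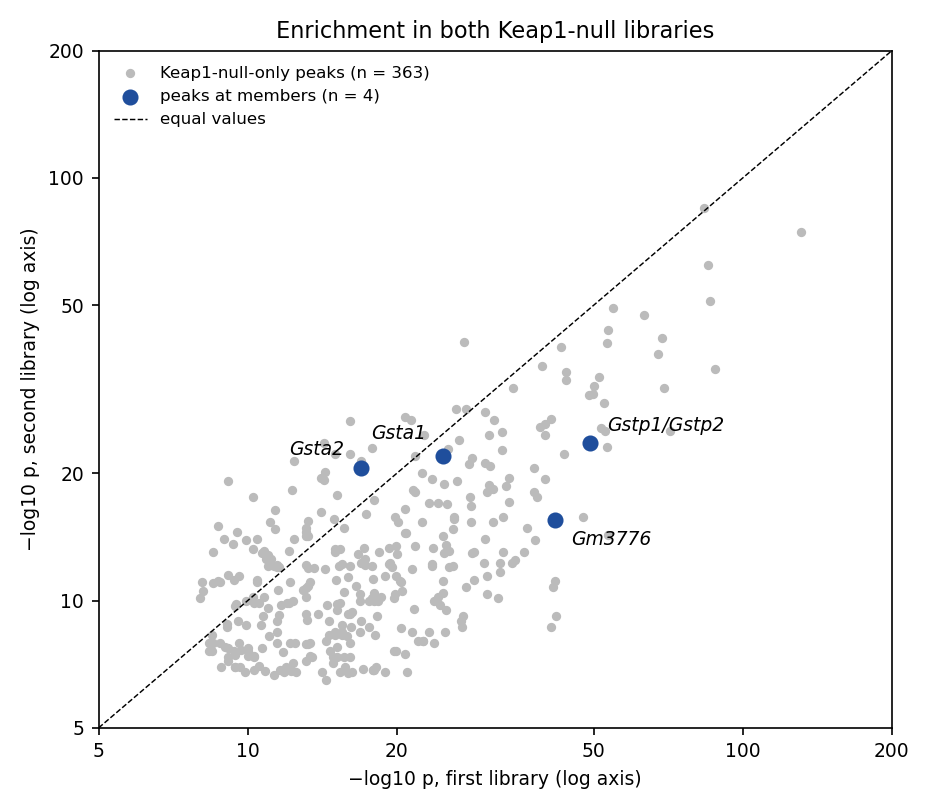
The −log10 p of enrichment in the first (x) and second (y) Keap1-null library, both on log axes, for the 363 Keap1-null-only peaks (grey) with the 4 peaks at GST members in blue. Gsta1 and Gsta2 lie near the line of equal values, and Gm3776 and the pi peak lie below it.

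The summits of the 2 libraries were 68 bp apart at Gsta1, 30 bp at Gm3776, 38 bp at Gsta2 and 17 bp at the pi genes. Over the Keap1-null-only peaks the median gap was 32 bp and the upper quartile 56 bp, so the Gsta1 gap was among the wider ones. The second library gave the narrower peak each time, with 349 against 544 bp at Gsta1, 515 against 547 bp at Gm3776, 337 against 549 bp at Gsta2 and 559 against 793 bp at the pi genes. Library widths were not compared over the whole list, so this does not set the GST peaks apart. The first library had the higher −log10 p at 342 of all 469 Keap1-null peaks. At Gsta1, Gsta2 and the pi genes the narrower peak lay wholly within the wider one.

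Other protein-coding genes shared these windows. Around the Gsta2 peak stood Omt2b at 18.7 kb, Dppa5a at 18.8 kb, Ooep at 28.6 kb, Omt2a at 33.5 kb, Gm10639 at 42.8 kb and Ddx43 at 47.5 kb. Ooep is a maternal gene of the oocyte, and Dppa5a is a marker of pluripotent cells. Around the pi peak stood Ndufv1, a subunit of mitochondrial complex I, at 33.4 kb, Cabp2 at 35.3 kb, Doc2g at 39.1 kb, Nudt8 at 44.0 kb and Tbx10 at 46.6 kb. In each case the GST gene or Gm3776 was the nearest protein-coding gene, which does not show that it is the gene acted on.

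Among 16 further genes with a GST name in the gene table, Gstp3 alone had a Keap1-null summit within 50 kb, beside 3.70% of all protein-coding genes. For the Nrf2-null list the count was 0, beside 0.693% of all protein-coding genes. Counts this low in so few genes do not set them apart from the background. Gm3776 and Gm10639, which also had a Keap1-null summit within 50 kb, are not among the 16 because they carry no GST name there. The 15 without one were the mu genes Gstm4, Gstm5, Gstm6 and Gstm7, the theta genes Gstt1 to Gstt4, the omega genes Gsto1 and Gsto2, Gstz1, Gstk1, Gstcd, Mgst2 and Mgst3. Gstk1, a kappa class transferase of mitochondria and peroxisomes, came nearest at 132 kb, and Gstz1, the zeta enzyme of tyrosine breakdown, was 356 kb away. The theta genes were 3119 to 3177 kb from a peak. The listed names Gsta5, Gsta6 and Gsta13 were not matched to a gene symbol in the gene table. Whether any of them is Gm3776 or Gm10639 was not established here.

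**Figure D4:**
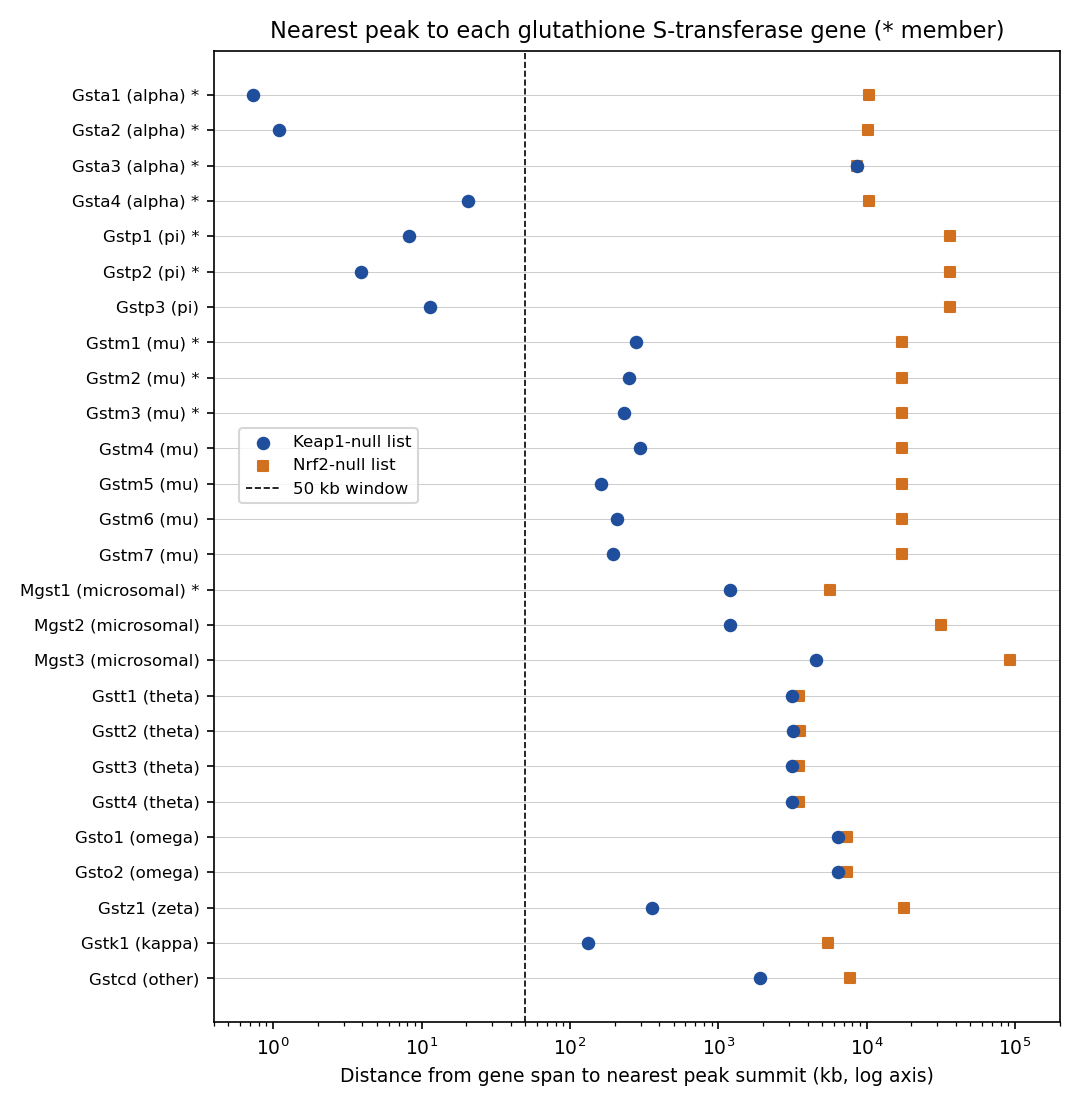
Distance in kb (log axis) from each GST gene span to the nearest peak summit of the Keap1-null list (blue) and the Nrf2-null list (orange), with the 50 kb window as a dashed line and members starred. Gsta1, Gsta2, Gsta4, Gstp1, Gstp2 and Gstp3 fall inside the window for Keap1-null peaks, and no gene does for Nrf2-null peaks.

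Genes that carry glutathione conjugates out of the cell or process them further were near a peak in 2 of 19 cases, beside the same 3.70% of all genes. Abcc1, which encodes an exporter of glutathione conjugates, had 2 Keap1-null-only peaks 8.67 and 10.5 kb from its span. The nearer (chromosome 16, 14352603 to 14352988) reached a −log10 p of 19.9 (first library) and 15.8 (second), and the other (chromosome 16, 14350687 to 14351143) had 25.4 and 22.9. Abcc4, a related exporter, had a peak 42.9 kb away (chromosome 14, 118750511 to 118750980) at 19.3 and 12.2, whose nearest protein-coding gene was Cldn10. Acy3, an aminoacylase of mercapturic acid metabolism, lay 56.1 kb from the pi peak and so just outside the window. The other transporters, gamma-glutamyl transferases, dipeptidases and acetyltransferases of this list had no peak in their windows. No gene of the list had an Nrf2-null peak, beside 0.693% of all genes, which shows nothing about the list.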

How the data were processed

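Nrf2 ChIP-seq of Keap1-null and Nrf2-null satellite cells was analysed from 1 deposited peak list per genotype, each joining 2 ChIP libraries in the IDR layout. Per the submitters' processing notes, the build was mm10 and the tools were MACS2 2.2.7.1, SAMtools 1.6, BWA 0.7.17 and Trim Galore 0.6.10, with IDR settings and the use of inputs not given in the sources used here. For each peak the authors deposited a score (up to 1000), the −log10 IDR and the −log10 p in each library; the fold and q columns hold −1 only. IDR was computed here as the antilog. Depth per library is unknown.

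Gene spans (21631 protein-coding) and promoters (32619 windows, 250 bases before to 50 after each start) came from RefSeq, GRCm38.p6. Summits were start plus offset, positions 1-based. Distances run from summit to gene span or start. Words were searched on both strands. Promoters were globally aligned (match 1, mismatch −1, gap opening −2, extension −0.5), and identity is identical bases over alignment columns. Placement and word search were tested on simulated data. Named genes are the members, protein-coding genes sharing a member peak's window and list genes with a peak; others without a peak were named after their values were seen. The planned protein comparison was not run. Members and lists were chosen with earlier results of these data known. Python 3.11.15, pandas 2.3.3, numpy 2.4.6 and Biopython 1.88 were used.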

Additional observations from a re-analysis of the deposited data

How the results depend on the processing

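The count of members with a Keap1-null peak, 5 at 50 kb, depended on the window. It was 0 when the summit had to lie inside the gene (0.878% of all genes), 3 at 5 kb (1.23%), 4 at 10 kb (1.47%), and 5 at 25 kb (2.27%) and 100 kb (6.36%). It was 3 when a peak counted only for its nearest protein-coding gene (1.79%), and 2 within 1500 bp upstream of a start (0.203%), a setting chosen after seeing the data. It was 5 with an IDR of at most 0.01 (2.03%) and with any base of a peak counted (3.71%). The Nrf2-null count was 0 under all 9 alternatives run, but so few of all genes were counted, at most 1.22% (at 100 kb), that this shows nothing about the members. All 4 member peaks also lacked an Nrf2-null summit within 10 kb, as did 77.2% of all Keap1-null peaks. Members with the ARE core word TGACNNNGC in the promoter numbered 2, or 1 with a final A, and 2 held the AP-1-like word. A core word with TGAG in place of TGAC was not searched. No paired analysis was possible because the lists merge the libraries of a genotype under columns without a bench. A listed peak needs both libraries, so neither replicate could be left out. Unknown depth limits any reading of missing peaks.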

Other observations

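Stretches with 3 neighbouring Keap1-null-only summits as close together as the alpha peaks, within 118 kb, were few. There were 6 of them on 5 chromosomes, and the alpha stretch was the longest. The others lay in Hdac4 on chromosome 1, across a group of predicted genes on chromosome 6, in a pair of overlapping stretches near Smyd4, Serpinf1, Serpinf2 and Wdr81 on chromosome 11, and at Slc22a23 on chromosome 13. The distance was set from the alpha peaks themselves, so that the alpha stretch is among them and the longest was fixed by the choice. Of the 21631 protein-coding genes, 65 (0.300%) had 2 or more Keap1-null summits in the span plus 50 kb. Gsta1, Gsta4, Gm3776, Gm10639 and Abcc1 were among these. They are not separate cases, since Gsta1, Gsta4 and Gm3776 were counted through the same 2 peaks. Gm10639 was counted through the Gm3776 and Gsta2 peaks.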
